A study of Mus musculus with 57 samples.

Results

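The sulfation and heparan sulfate enzymes described here are 10 genes chosen by symbol: the PAPS synthases Papss1 and Papss2, the chain polymerases Ext1 and Ext2, the N-sulfotransferases Ndst1 and Ndst2, the O-sulfotransferases Hs2st1 and Hs6st1, and the endosulfatases Sulf1 and Sulf2. All 10 symbols had a row among the 12087 genes of the deposited table. Papss2 and Sulf1 were chosen because they lie far apart in the authors' own comparison of distal with proximal cells, so their contrast is given as a description and not as a test. The values come from 57 single cells of the renal vesicle, the earliest epithelial stage of the nephron, sorted from 1 pool of 2 kidneys of Tg(Crym-EGFP)GF82Gsat mice at postnatal day 4. These mice are of mixed background and untreated as far as the labels say, and carry EGFP under the regulatory region of the Crym gene; the sort gate and the number of animals behind the pool are not given. All cells form 1 group from 1 pool, so cells are not replicates, no p-value was computed, and every SD below is over cells.

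Levels are RPKM, reads scaled by gene length and by mapped reads, and a gene counts as detected at RPKM 1 or more in that cell. Heparan sulfate is a sugar chain carried by proteoglycans of the cell surface and basement membrane, where its sulfate groups bind growth factors such as FGFs and Wnts. The PAPS synthases make PAPS, the donor of every sulfate group added in the Golgi, and Ext1 and Ext2 together lengthen the chain. Ndst enzymes swap acetyl for sulfate on glucosamine, after which Hs2st1 and Hs6st1 add sulfate at the 2-O and 6-O positions. Outside the cell, Sulf1 and Sulf2 clip 6-O sulfate off again. In mice, loss of Hs2st1 abolishes kidney formation, and a Papss2 mutation underlies the short-limbed brachymorphic mouse.

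The sources used here do not say which cells the authors called proximal or distal, so cells were described by marker genes that are not members of the enzyme set. Macrophage-like cells had C1qb at RPKM 500 or more (5 cells), and 2 further cells had the kidney transcription factor Pax8 below RPKM 5. The remaining 50 nephron cells were 12 distal-gene-only cells (Sox9 or Pou3f3 at RPKM 20 or more, Wt1 below 20), 33 Wt1-only cells (Wt1 at RPKM 20 or more, both distal genes below 20), 2 cells with both and 3 with neither. Of these, 8 cells lay within 2-fold of a class threshold. The summed RPKM of 6 nephron markers ran from 147 to 1515 in nephron cells and from 2.75 to 8.12 in macrophage-like cells. The summed RPKM of 10 macrophage markers was at most 182 in nephron cells and 8965 or more in macrophage-like cells. The summed RPKM of 9 proximal vesicle and podocyte markers, Wt1 among them, had a median of 56.0 in distal-gene-only cells and 617 in Wt1-only cells. Pax8, C1qb and Wt1 are members of these lists and also set the classes, so the sums describe the classes and are no test of them. The summed RPKM of the 3 ureteric bud markers with a row had a median of 32.0 in distal-gene-only cells and 0.854 in Wt1-only cells, led by Hoxb7 in 10 of 12 and 12 of 33 cells, and Wnt11 was below RPKM 1 in every cell of both classes. That of 6 stroma markers was 970 and 1458 in the cells with low Pax8, at most 2.79 in distal-gene-only cells and at most 355 in Wt1-only cells. The part of these cell types in the class differences below was not tested. Genes detected per cell ran from 2803 to 6495, with medians of 4324.5 in distal-gene-only cells and 4334 in Wt1-only cells. Relative depth, read from the steps between low RPKM values, spanned 4.47-fold over all cells, with medians of 1.12 in distal-gene-only cells and 1.00 in Wt1-only cells.

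RefSeq lists 2 start sites for Papss2 on chromosome 19 of build GRCm38.p6, and the windows from 250 bases before to 50 bases after each are shown because Papss2 is the gene on which the distal side of the contrast turns. Windows are on the plus strand, with matches to 2 motifs in capitals. The GC box is GGGCGG, which reads as CCGCCC when it lies on the other strand. The core motif of SOX factors is AACAAT, which reads as ATTGTT when it lies on the other strand. The 2 motifs do not overlap in these windows. The SOX core was searched for after the relation of Papss2 with Sox9, given below, had been seen.

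Papss2 start 1, chr19:32595465-32595764: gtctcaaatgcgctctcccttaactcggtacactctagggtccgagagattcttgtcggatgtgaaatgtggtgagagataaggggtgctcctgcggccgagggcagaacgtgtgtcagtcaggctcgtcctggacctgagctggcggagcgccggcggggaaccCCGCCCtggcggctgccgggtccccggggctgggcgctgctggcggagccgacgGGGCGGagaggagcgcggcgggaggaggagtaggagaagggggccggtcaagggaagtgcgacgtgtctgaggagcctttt

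Papss2 start 2, chr19:32619755-32620054: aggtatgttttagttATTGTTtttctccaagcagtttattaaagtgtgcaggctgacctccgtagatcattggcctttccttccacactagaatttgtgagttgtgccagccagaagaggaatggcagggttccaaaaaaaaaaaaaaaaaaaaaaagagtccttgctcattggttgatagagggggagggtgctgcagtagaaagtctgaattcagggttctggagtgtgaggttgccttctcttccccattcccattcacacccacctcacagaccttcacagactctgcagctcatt

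The upstream window had a GC content of 66.3%, 27 CpG sites, 2 GC boxes and no SOX core. The window of the downstream start had a GC content of 44.3%, 1 CpG site, 1 SOX core and no GC box. Over 32544 RefSeq promoter windows of the same length the median GC content was 53.0% with 7 CpG sites, 35.9% held a GC box and 10.6% held the SOX core. Papss1, the other PAPS synthase, also had 2 windows, of 66.3% GC with 27 CpG sites and 1 GC box, and of 47.3% GC with 6 CpG sites and 1 SOX core. Such a match describes letters only, and RPKM per gene does not show which start was used.

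Papss2 was detected in 21 of 57 cells (36.8%, exact Clopper-Pearson 95% interval 24.4 to 50.7), and all 21 were nephron cells. Over the 57 cells its RPKM averaged 65.9 ± 136 (SD). Its locus is chromosome 19, 32670205 to 32741677, on build mm9. In distal-gene-only cells Papss2 ran from RPKM 0 to 508 with a median of 161, and in Wt1-only cells from 0 to 502 with a median of 0.144. Detection covered 10 of 12 distal-gene-only cells (83.3%, interval 51.6 to 97.9) and 8 of 33 Wt1-only cells (24.2%, interval 11.1 to 42.3). The classes overlapped at both ends of the range, because 2 distal-gene-only cells lay below RPKM 1 and 5 Wt1-only cells lay at 20 or more. The mean RPKM was 200 ± 185 in distal-gene-only cells and 33.8 ± 106 in Wt1-only cells (SD, n = 12 and 33 cells). On the log2(RPKM + 1) scale the difference, distal-gene-only minus Wt1-only, was 4.78, or 27.4-fold, against a pooled SD over cells of 2.79.

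In the 12 distal-gene-only cells Papss2 had either a high level or next to none. The 10 detecting cells held RPKM 508, 487, 418, 284, 197, 181, 141, 92.3, 55.3 and 32.7, and the other two held 0.402 and 0. The highest value belonged to cell 52, which had the lowest relative depth of all cells, 0.348. Outside the distal-gene-only and Wt1-only classes, Papss2 was at RPKM 119 and 0.155 in the cells with both marker types and at 122, 2.65 and 0 in the cells with neither. Papss2 was at 0 in all 5 macrophage-like cells and in both cells with low Pax8.

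Papss2 went with Sox9, a transcription factor of the distal vesicle, and less with Pou3f3, a POU-domain factor of the same region. Of the 12 nephron cells with Sox9 at RPKM 20 or more, 11 had Papss2, with a median of RPKM 161, and the exception, cell 36, had 0.155. The 2 cells with Pou3f3 at RPKM 20 or more and Sox9 below 20, cells 47 and 50, are the distal-gene-only cells without Papss2. Cell 47 had Pou3f3 at RPKM 20.8, close to the threshold of 20, and cell 50 had Pax8 at 10.7. Papss2 was detected in 3 of 4 nephron cells with Sox9 between 5 and 20, and in 7 of 34 cells with Sox9 below 5, which include the 2 cells with Pou3f3. Across the 50 nephron cells the Spearman rho of Papss2 was 0.63 with Sox9, 0.43 with Pou3f3 and -0.60 with Wt1. These cells share 1 pool, and the rho of Papss2 with Sox9 was 0.66 within distal-gene-only cells and 0.22 within Wt1-only cells. The value of 0.66 takes in cells 47 and 50, where both genes lay below RPKM 1.

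**Figure D1:**
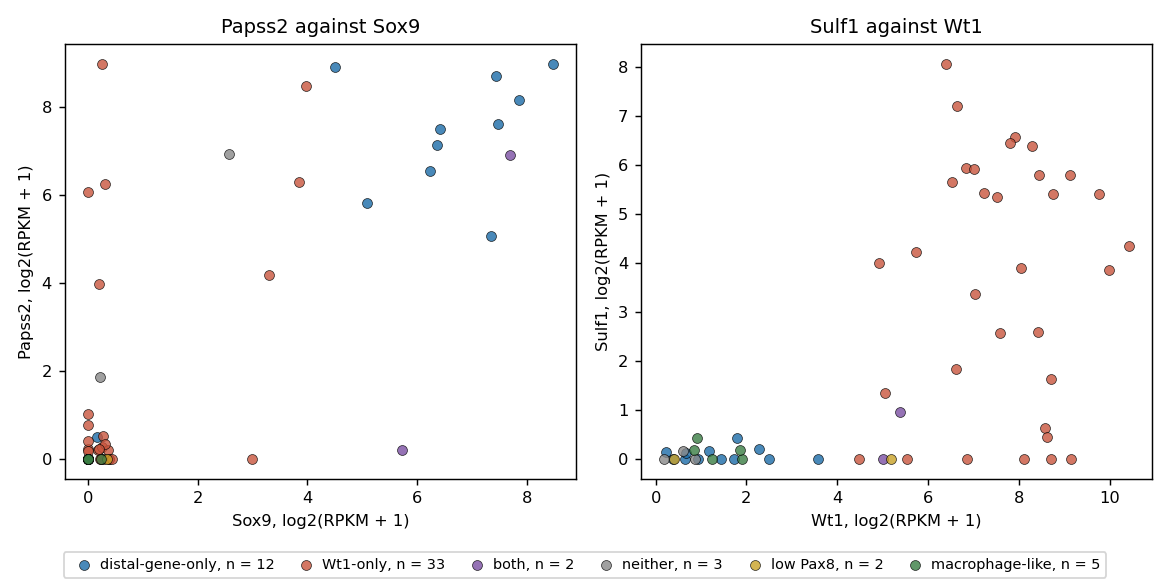
Papss2 against Sox9 (left panel) and Sulf1 against Wt1 (right panel) in 57 single cells, both axes in log2(RPKM + 1), 1 point per cell, coloured by marker class. Papss2 is high in 11 of 12 nephron cells with Sox9 at RPKM 20 or more, and Sulf1 at RPKM 1 or more is seen in Wt1-only cells alone, 25 of 33, with no trend against Wt1 within them (rho -0.04).

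The 8 Wt1-only cells with Papss2 formed a mixed set. Cells 44, 23, 21, 12 and 54 had Papss2 at RPKM 502, 357, 78.3, 75.9 and 66.5, and cells 9, 39 and 38 had 17.2, 14.7 and 1.04. Cells 23, 21 and 9 also carried Sox9, at RPKM 14.7, 13.4 and 8.88, under the class threshold of 20. In the other five, Sox9 was below RPKM 1. Cell 44 thus had Papss2 as high as any distal-gene-only cell but 1, with Wt1 at RPKM 129, Sox9 at 0.190 and Pou3f3 at 0.

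Sulf1 (chromosome 1, 12682511 to 12850453, mm9) reached the detection level in 25 of 57 cells (43.9%, interval 30.7 to 57.6). Over the 57 cells its RPKM averaged 21.6 ± 45.1 (SD). All 25 were Wt1-only cells, 25 of 33 of that class (75.8%, interval 57.7 to 88.9). None of 12 distal-gene-only cells had it, which allows a share of up to 26.5% by the exact interval. Sulf1 ran from RPKM 0 to 0.344 with a median of 0 in distal-gene-only cells, and from 0 to 268 with a median of 15.1 in Wt1-only cells. Of the 33 Wt1-only cells, 6 overlapped with the distal-gene-only cells and 27 lay above all of them, 2 of these below RPKM 1. On the log2(RPKM + 1) scale the difference, distal-gene-only minus Wt1-only, was -3.55, or 11.8-fold lower, against a pooled SD over cells of 2.20.

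Sulf1 was compared with other genes detected about as widely, although it was chosen with this contrast in view. Among the 2102 genes detected in 20 to 30 nephron cells, 8 genes (0.381%) were detected in no distal-gene-only cell, Sulf1 among them. Within Wt1-only cells the level of Sulf1 did not track that of Wt1, with a Spearman rho of -0.04, against 0.51 over all 50 nephron cells. The highest Sulf1 values were RPKM 268, 147, 94.5 and 87.1, in cells 29, 43, 38 and 39, where Wt1 was at 82.8, 99.0, 241 and 224. Cell 36, with both marker types, had Sulf1 at RPKM 0.934, just under the detection level. Sulf1 was at RPKM 0.354 or less in the 5 macrophage-like cells and at 0 in both cells with low Pax8.

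Detection rested on several reads for most cells. In a cell of median depth RPKM 1 corresponds to an estimated 5.58 reads of Papss2 and 8.35 reads of Sulf1. Papss2 lay above 0 and below RPKM 1 in 12 cells, 8 of them with an estimated single read, and Sulf1 likewise in 12 cells, 8 of them with a single read. Papss2 was listed at 0 in 24 cells and Sulf1 in 20 cells. At this depth, a value below RPKM 1 cannot be taken as absence of the transcript. In cells with relative depth at or above that of the median cell, a setting chosen after seeing the data, the difference between the classes was 5.36 for Papss2 and -4.54 for Sulf1 on the log2 scale, from 7 distal-gene-only and 17 Wt1-only cells.

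Papss2 and Sulf1 were mostly found in different cells. They were chosen from opposite sides of the authors' comparison, so the counts beside independence describe that choice and are no test. At RPKM 1 or more, 15 cells had Papss2 alone, 19 had Sulf1 alone, 6 had both and 17 had neither, where independence gives 9.21 cells with both. At RPKM 20 or more, 16 cells had Papss2 alone, 13 had Sulf1 alone and 1 had both, where independence gives 4.18. The Spearman rho between them was -0.24 over 57 cells and -0.39 over the 50 nephron cells. Among the 33 Wt1-only cells, 6 had both genes where independence gives 6.06, and the rho was -0.03. Within distal-gene-only cells the relation cannot be read, since none had Sulf1 at the detection level.

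**Figure D2:**
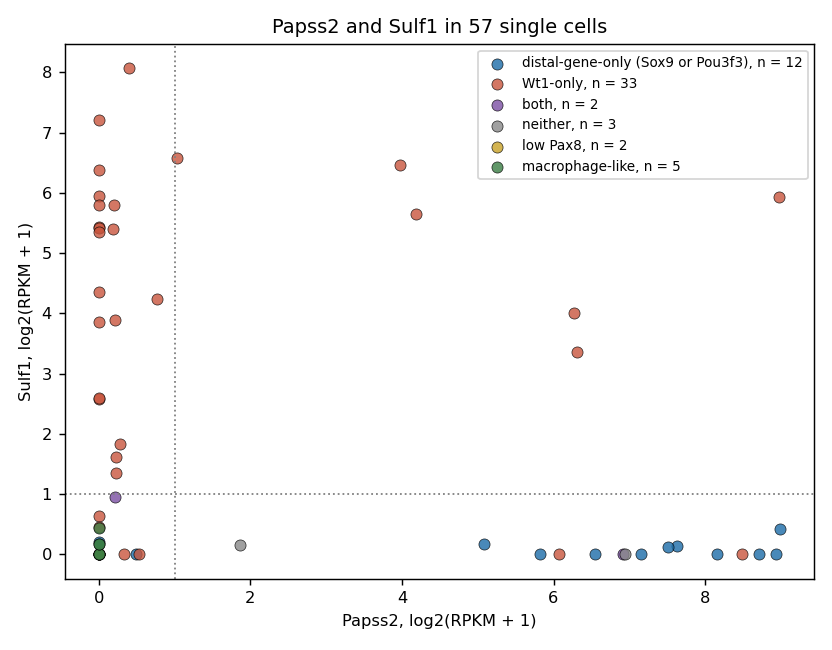
Sulf1 against Papss2 in 57 single cells, both axes in log2(RPKM + 1), 1 point per cell coloured by marker class, with dotted lines at RPKM 1. Distal-gene-only cells lie along the Papss2 axis with Sulf1 at RPKM 0.344 or less, most Wt1-only cells lie along the Sulf1 axis, and the 6 cells past both lines are all Wt1-only.

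The 6 cells with both genes were cells 9, 12, 21, 38, 39 and 44, all of them Wt1-only. Cell 44 had the highest Papss2 of them, RPKM 502 with Sulf1 at 59.8, and was the only cell with both at RPKM 20 or more. Sulf1 exceeded Papss2 in cells 9, 38 and 39, at RPKM 49.3, 94.5 and 87.1 against Papss2 at 17.2, 1.04 and 14.7. Papss2 exceeded Sulf1 in cells 12 and 21, at RPKM 75.9 and 78.3 against Sulf1 at 15.1 and 9.30. Genes detected per cell in these 6 cells ran from 2854 in cell 44 to 5705 in cell 38. Per the labels' protocols capture chambers were inspected under a microscope for single cells, and the part of chambers with more than 1 cell was not tested.

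Papss1, the other PAPS synthase (chromosome 3, 131227732 to 131306635, mm9), was not divided between the classes in the way Papss2 was. Papss1 was detected in 26 of 57 cells and averaged RPKM 37.1 ± 63.1 over them all (SD). It reached 7 of 12 distal-gene-only cells, with a median of RPKM 18.6 and a highest value of 249, and 15 of 33 Wt1-only cells, with a median of 0.424 and a highest value of 247. The ranges of both classes were nearly the same. The difference, distal-gene-only minus Wt1-only, was 1.39 on the log2(RPKM + 1) scale, which was below the SD over cells of either class, 3.36 in distal-gene-only cells and 2.91 in Wt1-only cells. Papss1 tracked the number of genes detected per cell, with a rho of 0.42 over nephron cells.

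At least 1 of the PAPS synthases was detected in all 12 distal-gene-only cells and in 19 of 33 Wt1-only cells. Both were found in 10 cells, where independence gives 9.58. The 2 distal-gene-only cells that lacked Papss2 had Papss1, at RPKM 249 in cell 47, the highest value of all cells, and 25.2 in cell 50. In 5 distal-gene-only cells with Papss2, cells 6, 8, 32, 52 and 56, Papss1 lay below RPKM 1. Of the macrophage-like cells, 2 of 5 had Papss1, at RPKM 37.8 and 15.5, and none had Papss2.

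**Figure D3:**
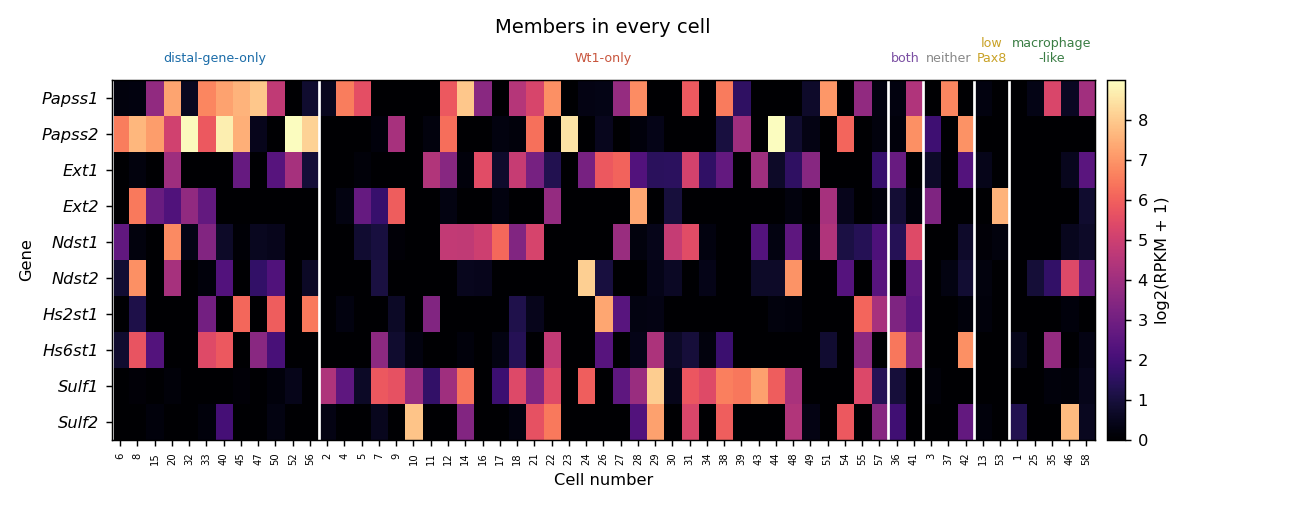
Levels of the 10 enzymes (rows) in each of 57 cells (columns, grouped by marker class), as log2(RPKM + 1) on the colour scale. Papss2 is bright in most of the 12 distal-gene-only columns and Sulf1 is dark in all of them, while the polymerases and sulfotransferases are scattered over both classes.

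Of all 10 enzymes, 4 differed by 2-fold or more towards distal-gene-only cells and 2 towards Wt1-only cells on the log2(RPKM + 1) scale, where 8.18% and 7.27% of all 12087 genes did, and the median of all genes was -0.04. Papss2 and Sulf1 are among those 6 by choice. The other four are Papss1, Hs2st1, Hs6st1 and Sulf2. For each of the 8 enzymes other than Papss2 and Sulf1, the difference was smaller than the SD over Wt1-only cells.

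The polymerases Ext1 (chromosome 15, 52899818 to 53177738, mm9) and Ext2 (chromosome 2, 93501185 to 93662725, mm9) were detected in 26 and 13 cells. Ext1 averaged RPKM 6.67 ± 13.7 and Ext2 10.1 ± 34.8 (SD, n = 57 cells). Ext1 was found in 4 of 12 distal-gene-only cells, with a highest value of RPKM 16.9, and in 19 of 33 Wt1-only cells, with a highest value of 65.6. Ext2 was found in 5 of 12 distal-gene-only cells and 6 of 33 Wt1-only cells. The differences on the log2 scale ran in opposite directions, -0.76 for Ext1 and 0.64 for Ext2. Although the proteins work as a pair, both transcripts were detected together in only 3 cells, where independence gives 5.93, and at least 1 in 36. The highest Ext2 value of all, RPKM 189, belonged to cell 53, with low Pax8.

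The N-sulfotransferases were spread over both classes. Ndst1 (chromosome 18, 60845630 to 60908319, mm9) was detected in 21 cells and averaged RPKM 8.65 ± 19.6, and Ndst2 (chromosome 14, 21542952 to 21553784, mm9) in 15 cells with 10.7 ± 41.8 (SD over 57 cells). Ndst1 was found in 3 of 12 distal-gene-only cells and 16 of 33 Wt1-only cells, a log2 difference of -0.58. Ndst2 was found in 5 of 12 distal-gene-only cells and 6 of 33 Wt1-only cells, a log2 difference of 0.80. At least 1 of them was detected in 7 of 12 distal-gene-only cells and 18 of 33 Wt1-only cells. Single cells carried much of the mean: the highest Ndst2 values were RPKM 271 and 123 in the Wt1-only cells 24 and 48 and 118 in the distal-gene-only cell 8.

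The O-sulfotransferases of the set, Hs2st1 and Hs6st1, had higher log2 means in distal-gene-only cells, by less than the SD over Wt1-only cells. Hs2st1 (chromosome 3, 144094071 to 144233180, mm9) was detected in 5 of 12 distal-gene-only cells and 6 of 33 Wt1-only cells, a log2 difference of 1.08. Its highest value was RPKM 160, in a Wt1-only cell, against 89.3 in distal-gene-only cells. Hs6st1 (chromosome 1, 36125245 to 36163291, mm9) was detected in 6 of 12 distal-gene-only cells, up to RPKM 54.9, and 7 of 33 Wt1-only cells, up to 26.4, a log2 difference of 1.34. The highest Hs6st1 values lay outside both classes, at RPKM 119 in cell 42, with neither marker type, and 86.3 in cell 36, with both. Both enzymes were detected together in 8 cells, where independence gives 3.88. Hs6st1 tracked relative depth, with a rho of 0.44 over nephron cells, and the part of depth in its class difference was not tested.

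**Figure D4:**
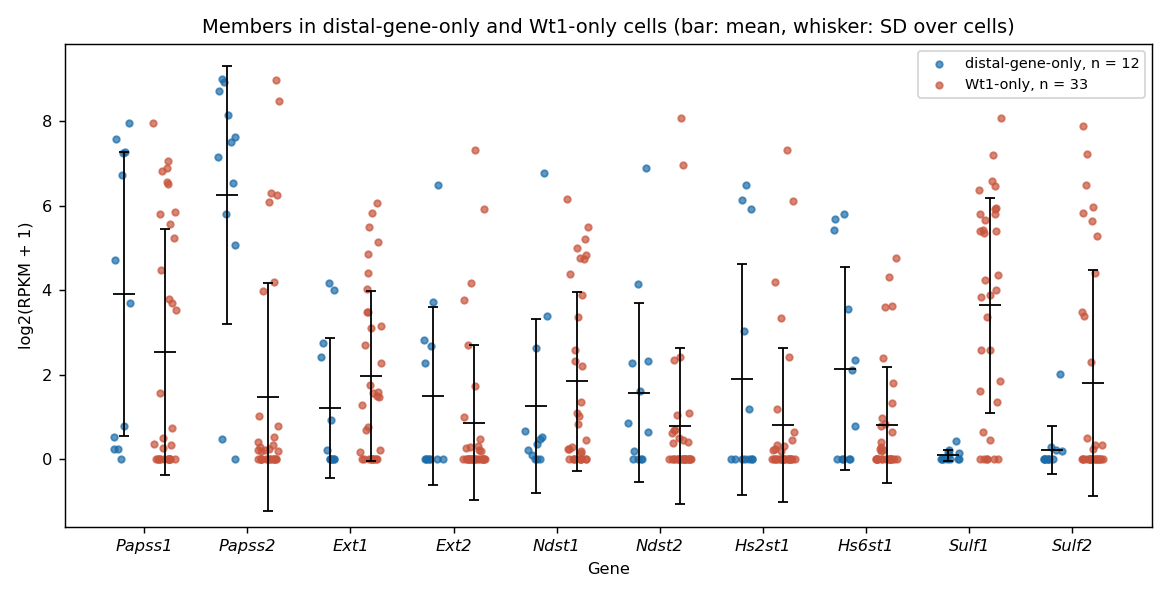
Levels of the 10 enzymes in 12 distal-gene-only cells (blue, left of each gene) and 33 Wt1-only cells (red, right), in log2(RPKM + 1), 1 point per cell with small sideways shifts, the bar at the mean and the whisker at 1 SD over cells. For Papss2 and Sulf1, chosen for this contrast, the means differ by 4.78 against a pooled SD of 2.79 and by -3.55 against 2.20. The share of all genes past their pooled SD was not computed.

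Sulf2, the second endosulfatase (chromosome 2, 165898589 to 165981156, mm9), was detected in 16 cells and averaged RPKM 16.6 ± 47.3 (SD over 57 cells). It was found in 1 of 12 distal-gene-only cells, cell 40 at RPKM 3.03, and in 11 of 33 Wt1-only cells, with values up to 236. The log2 difference, distal-gene-only minus Wt1-only, was -1.57, the same sign as for Sulf1. Unlike Sulf1, it was also found outside the nephron cells, at RPKM 209 and 1.45 in the macrophage-like cells 46 and 1. All 10 cells with both endosulfatases were Wt1-only, where independence within that class gives 8.33. Of the Wt1-only cells, 1 had Sulf2 without Sulf1, cell 54 at RPKM 55.7, and this cell had Papss2 at 66.5. Sulf2 tracked relative depth with a rho of 0.44 over nephron cells and 0.61 within Wt1-only cells, and the part of depth in its class difference was not tested.

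At least 1 endosulfatase was detected in 1 of 12 distal-gene-only cells and 26 of 33 Wt1-only cells. At least 1 O-sulfotransferase was detected in 8 of 12 distal-gene-only cells and 10 of 33 Wt1-only cells. At least 1 polymerase was detected in 8 of 12 distal-gene-only cells and 23 of 33 Wt1-only cells, shares of 66.7% and 69.7%. No nephron cell lacked all 10 enzymes, and a distal-gene-only cell held a median of 4 (range 2 to 6) and a Wt1-only cell a median of 3 (range 1 to 6). The number of enzymes detected in a nephron cell went with the number of all genes detected, rho 0.56. Over the 45 pairs of enzymes rho ran from -0.39, for Papss2 with Sulf1, to 0.32, for Hs6st1 with Sulf2, with a median of 0.01 over nephron cells. Papss2 and Sulf1 were chosen for lying apart, so nothing is read from the place of that pair.

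Genes whose pattern was most like that of Papss2 over the 50 nephron cells, among 7729 genes detected in at least 10 of them, were Pcdh7 (rho 0.66), Sox9 (0.63), Cpb2 (0.59), Dkk1 (0.57), Epcam (0.55) and Kdm2b (0.52). Pcdh7, a protocadherin, was detected in 8 of 12 distal-gene-only cells and 1 of 33 Wt1-only cells. With a single detecting Wt1-only cell, its likeness to Papss2 cannot be read within that class. Dkk1, a secreted Wnt inhibitor, was found in 9 of 12 distal-gene-only cells and 4 of 33 Wt1-only cells, and Epcam, an epithelial adhesion protein, in 7 of 12 and 5 of 33. Kdm2b, a histone demethylase, was more widespread, in 31 nephron cells.

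Genes most like Sulf1 were Sparc (0.61), Tead1 (0.57), AI314831 (0.57), Npr3 (0.55), Phf14 (0.54) and Cyp1b1 (0.53). Sparc, a collagen-binding matrix protein, was detected in 49 nephron cells, so its likeness is in level and not in detection. Npr3, the clearance receptor for natriuretic peptides, was detected in 10 nephron cells and AI314831 in 18, all of them Wt1-only. Tead1, a transcription factor of the Hippo pathway, was found in 4 of 12 distal-gene-only cells and 31 of 33 Wt1-only cells. Within Wt1-only cells these 6 values of rho with Sulf1 ran from 0.32 to 0.48.

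The wider pathway was read from 9 lists of 86 further genes, of which 63 had a row. Of these 63, 7 were higher by 2-fold or more in distal-gene-only cells and 4 were lower, shares of 11.1% and 6.35% where 8.18% and 7.27% of all genes did so, with a median difference of -0.12. They were also less widely detected, with a median of 10 cells, against 19 for the 10 enzymes and 16 for all genes. Counts by list below take in the 10 enzymes as well. The lists are short, and no trend of a list is read from its count.

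In PAPS supply 2 of 8 genes were higher by 2-fold in distal-gene-only cells, Papss1 and Papss2, and none lower. Of all genes, 8.18% were higher and 7.27% lower. Bpnt1, which breaks down the PAP left after sulfate transfer, was detected in 53 cells with a log2 difference of 0.44, and Impad1, its Golgi relative, in 31 with 0.42. The Golgi PAPS transporter Slc35b2 was detected in 6 of 12 distal-gene-only cells and 15 of 33 Wt1-only cells, a log2 difference of 0.44. The 6 genes of PAPS supply other than the synthases lay between 0.09 and 0.44, far from the 4.78 of Papss2.

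In linker synthesis 2 of 9 genes were higher by 2-fold in distal-gene-only cells and none lower, where 8.18% and 7.27% of all genes were. These were Ugdh, which makes UDP-glucuronic acid (18 cells, difference 1.08), and B4galt7, a galactosyltransferase of the linker (7 cells, 1.68). Fam20b, the xylose kinase, and the nucleotide sugar transporter Slc35d1 were found in 18 and 15 cells with differences of -0.34 and -0.38, and B3gat3, which ends the linker with glucuronic acid, in 10 cells with -0.09. None of the 4 genes of polymerisation passed 2-fold, and Extl3, which starts the chain, was detected in 27 cells with a difference of -0.09 and its relative Extl2 in 10 with 0.23.

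In chain modification 3 of 10 genes were higher by 2-fold and none lower, where 8.18% and 7.27% of all genes were. These 3 were Hs3st3b1 and, from the enzyme set, Hs2st1 and Hs6st1. The most widely detected was Hs3st3b1, a 3-O-sulfotransferase, in 36 cells with an average RPKM of 65.0 ± 101 (SD over 57 cells), above all of the polymerases and sulfotransferases in the enzyme set. It was found in 11 of 12 distal-gene-only cells, with a median of RPKM 94.6, and in 24 of 33 Wt1-only cells, with a median of 28.7, a log2 difference of 1.65. In extracellular editing Sulf1 and Sulf2 were lower, and heparanase (Hpse), which cuts the chain, was detected in 6 cells.

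Among 14 proteoglycan cores, 1 was higher by 2-fold and 2 were lower, where 8.18% and 7.27% of all genes were. Sdc2, a syndecan, was detected in 5 of 12 distal-gene-only cells, with a median of RPKM 0.350, and in 27 of 33 Wt1-only cells, with a median of 41.8, a log2 difference of -2.94. Sdc1, another syndecan, was detected in 1 of 12 distal-gene-only cells and 18 of 33 Wt1-only cells, a difference of -2.42. The glypican Gpc4 was higher, with a difference of 1.07 from 12 cells. The most widely detected cores were in both classes: Sdc4 in 56 cells (mean RPKM 341 ± 308, difference -0.53), Gpc3 in 55 (187 ± 165, 0.90), Gpc1 in 49 (-0.58) and agrin (Agrn) in 44 (-0.74).

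**Figure D5:**
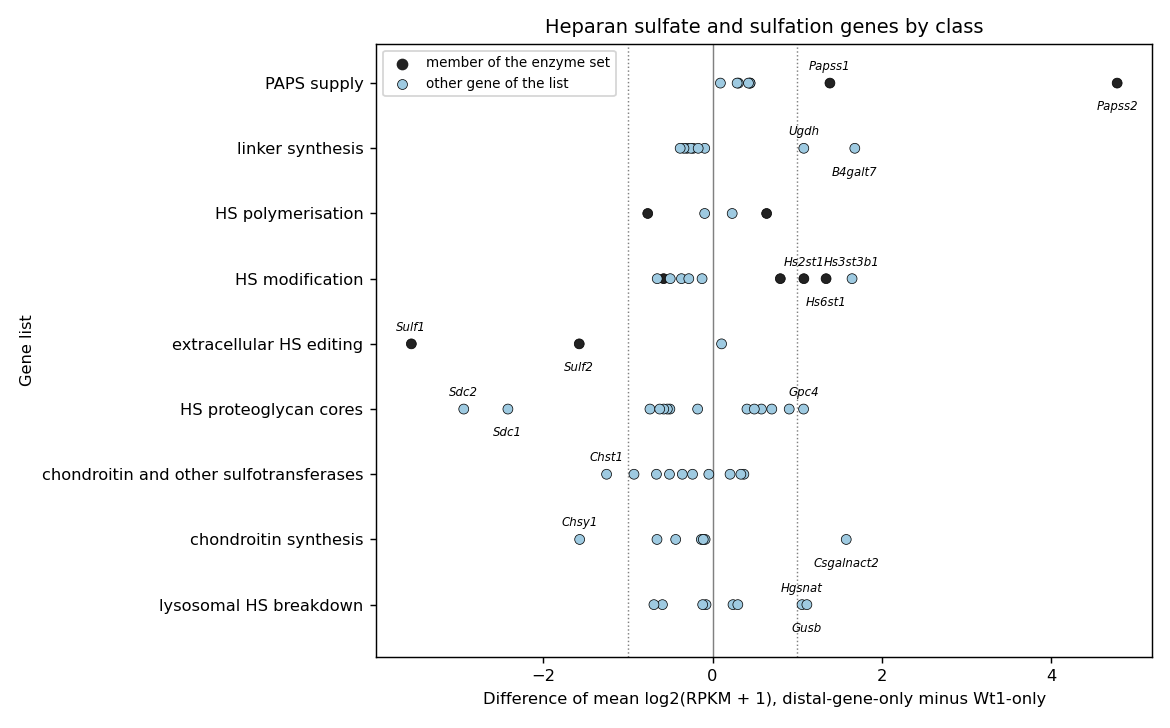
Difference of mean log2(RPKM + 1), distal-gene-only minus Wt1-only, for each gene of 9 sulfation and heparan sulfate (HS) lists, 1 point per gene, black for the 10 enzymes and blue for the other 63 genes, with dotted lines at 2-fold. Papss2 (4.78) and Sulf1 (-3.55), chosen for this contrast, lie at the ends, and Sdc2 (-2.94) and Sdc1 (-2.42) are the next lowest.

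The chondroitin lists cover enzymes that draw on the same PAPS or build its acceptor chain. Chst1, a keratan sulfate sulfotransferase, was detected in 0 of 12 distal-gene-only cells and 11 of 33 Wt1-only cells, a difference of -1.25. It was the only gene of its list of 10 past 2-fold, where 8.18% of all genes were higher and 7.27% lower. Chst2, a sulfotransferase acting on N-acetylglucosamine, was detected in 42 cells with a difference of -0.93. Tpst1, which sulfates tyrosine, was detected in 17 cells and the chondroitin 4-O-sulfotransferase Chst11 in 10. In chondroitin synthesis Chsy1, a chain polymerase, was detected in 47 cells at a median RPKM of 22.7 in distal-gene-only cells and 65.6 in Wt1-only cells, a difference of -1.57. Dse, Csgalnact2 and Dsel were detected in 22, 12 and 9 cells, and Csgalnact2 differed by 1.58. Of the 7 genes of chondroitin synthesis, 1 was higher by 2-fold and 1 lower, beside the same shares of all genes.

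The list for lysosomal breakdown of heparan sulfate held 8 genes, among them Sumf1 and Sumf2, which do not break down the chain themselves. Of the 8, 2 were higher by 2-fold in distal-gene-only cells and none lower. The 2 were Gusb (14 cells, 1.11) and Hgsnat (8 cells, 1.06). Of all genes, 8.18% were higher and 7.27% lower. Sumf2, a relative of the sulfatase activator Sumf1, was detected in 33 cells with a difference of -0.69. Sumf1, which activates the lysosomal sulfatases and the endosulfatases, was detected in 10 cells with a difference of -0.12.

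The authors' deposited table of a proximal against a distal class lists 787 of the 12087 genes, 6.51%, with a signed fold that is negative where the distal class was higher. Of the 10 enzymes, 2 are listed in the authors' deposited table, 1 on each side, where the distal side holds 2.90% of all genes and the proximal side 3.61%, and since the enzymes were chosen with it in view nothing is read from that count. Papss2 has a fold of -219.6 in the authors' deposited table, the first of 351 genes in the distal direction. Sulf1 has a fold of 42.4 in the authors' deposited table, the sixth of 436 in the proximal direction. Of the wider pathway the authors' deposited table holds Sdc2 (19.8), Sdc1 (6.83) and Chst1 (4.14) on the proximal side and B4galt7 (-2.20), Hgsnat (-3.15) and Gpc4 (-3.18) on the distal side. These 6 have the same direction in the marker classes above, which share the cells and are no independent evidence.

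The same deposited table gives RPKM values of its own in 28 of the cells, 10 of them distal-gene-only, 17 Wt1-only and 1 with neither marker type. In these values 11 cells had Papss2 alone, 9 had Sulf1 alone, 3 had both and 5 had neither, and rho was -0.49. Papss2 and Sulf1 were chosen with the authors' comparison in view. The 28 cells also ranked nearly alike in both sets of values, with a rho of 0.999 for each gene. This split is therefore no independent evidence. The 3 cells with both were cells 38, 39 and 48, all Wt1-only; cell 48 had Papss2 at RPKM 1.09 here and at 0.710 in the larger table. Cell 44, with the highest levels of both together, is not among these 28 cells.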

How the data were processed

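The 57 libraries were made from cells captured on a Fluidigm C1 chip, with SMARTer amplification and Nextera XT tagmentation, which keeps no strand and has no molecular identifiers, per the labels' protocols. The authors deposited RPKM values of 12087 genes in 57 cells, with a count per gene of the cells above RPKM 3, per the file headers. They also deposited RPKM values of 787 genes in 28 cells with a signed fold, read here as a score, since its formula is not stated. Values of both tables differ and were not mixed. TopHat 1.4.1, DESeq and build mm9 appear in the submitters' processing notes with no role for each.

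From these values detection (RPKM 1 or more), exact Clopper-Pearson 95% intervals, means with SD over cells, differences of mean log2(RPKM + 1) and Spearman rho were computed (Python 3.11.15, numpy 2.4.6, pandas 2.3.3, scipy 1.17.1). Intervals and SDs cover the sampling of cells from 1 pool, not animals or counting of molecules. Depth, relative to the median cell, ran from 0.348 to 1.55 and was estimated from the steps between low RPKM values. In that estimate 65.9% of the low values of 4767 genes, those of a few estimated reads, came within 0.1 of a whole number of reads. With 1 pool no count test was run. The steps were tested on simulated data. Promoter windows came from RefSeq, which gave them for 7 of the 10 enzymes. The named genes are the 10 enzymes, the 4 most widely detected genes of each list (ties by mean RPKM), those in the authors' table, the 6 genes most like Papss2 and Sulf1, and the class markers. A gene that this rule takes is not reported here. The enzymes, lists and thresholds were chosen with earlier results of these data known. Symbols shared by near-identical copies were not examined.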

Additional observations from a re-analysis of the deposited data

How the results depend on the processing

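Of 29 alternative settings, 24 left their result within the SD over cells, the 95% interval or, for rho, 0.1 of the value given. Another 5 moved their result, and 0 turned a direction, which shares of cells do not have. The SD over single cells is wide, so a class difference could change by much and still count as unmoved. Counting any RPKM above 0 as detected moved the share of cells with Papss2 to 57.9%, with Sulf1 to 64.9% and with both to 35.1%, which takes in cells with an estimated single read. In the nephron cells alone the rho of Papss2 with Sulf1 was -0.39, and with values below RPKM 1 also set to 0, a setting chosen after seeing the data, -0.35. The class difference of Papss2 ran from 2.82 (pseudocount 10) to 6.48 (pseudocount 0.1), and that of Sulf1 from -1.55 to -5.64 with the same pseudocounts, so the folds depend on the pseudocount. No paired analysis was possible because all cells belong to 1 group and carry no replicate numbers that pair samples. No replicate could be left out, since there is 1 pool. Depth limits each value below RPKM 1, and with 12 distal-gene-only cells a share of up to 26.5% is compatible with a count of 0.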
